A study of Mus musculus with 2 samples.

Results

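Kupffer cells and other macrophages were examined in droplet single-cell RNA-Seq (scRNA-Seq) of hepatocyte preparations from mouse liver, before and 48 h after partial hepatectomy (PHx), the surgical removal of part of the liver. A droplet barcode was counted as a macrophage when it met 4 conditions. At most 30% of its transcript molecules came from mitochondrial genes, and at least 3 of 10 macrophage genes were detected (Clec4f, Cd5l, Vsig4, C1qa, C1qb, C1qc, Marco, Csf1r, Adgre1 and Cd68). These genes made up at least 0.3% of its non-mitochondrial unique molecular identifiers (UMIs, each counted as 1 transcript molecule), and they gave more UMIs than 8 endothelial genes (Stab2, Clec4g, Kdr, Ptprb, Oit3, Gpr182, Fcgr2b and Egfl7). The rule selected 320 of 60788 barcodes, of which 295 (of 59202) were from undamaged liver (0 h) and 25 (of 1586) from liver 48 h after PHx (PHx48h). The members were therefore chosen by measured values, and the levels of these 18 genes are given below as a description.

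Each time point was 1 library, made from part of the hepatocyte preparation of 1 adult male C57BL/6 mouse on a normal diet (the substrain is C57BL/6J in the study's methods). The labels give an age of 10 to 12 weeks at surgery, and the study's methods give a somewhat younger age. The 0 h group was healthy liver without damage, and the PHx48h group was the liver remnant 48 h after the surgery, with no other treatment or allele in either group. Livers were dissociated by collagenase perfusion and enriched for hepatocytes, so the macrophages were cells carried over in that isolate and not a purified or complete sample of the liver's macrophages. A different number of macrophages in the liver and a different recovery during isolation cannot be told apart. With 1 library per group there was no replicate check, every difference compares these 2 libraries, and no test between time points was made. The 95% intervals given below (exact Poisson for levels, exact Clopper-Pearson for shares) cover counting error only.

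Kupffer cells are the resident macrophages of the liver and line its sinusoids, where they clear particles, microbes and aged red cells from portal blood. Their identity is tied to the C-type lectin Clec4f, the phosphatidylserine receptor Timd4 and the complement receptor Vsig4, and their survival depends on signalling through the receptor Csf1r. They take up debris through scavenger receptors, recycle heme iron, secrete the complement component C1q and can present antigen on MHC class II. After tissue loss they are known as a source of cytokines that prime hepatocytes, and blood monocytes can enter the liver and add to the macrophage pool.

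Of the 10 rule genes, members carried a median of 7 at 0 h (range, 3 to 10) and of 9 at 48 h (range, 7 to 10). The summed share of these genes had a median of 1.16% of non-mitochondrial UMIs at 0 h and 1.21% at 48 h. The barcodes just inside the 0.3% limit stood at 0.304%, 0.308% and 0.308% at 0 h and at 0.309%, 0.310% and 0.406% at 48 h. Those just outside it, with the other conditions met, stood at 0.290%, 0.285% and 0.281% at 0 h and at 0.163%, 0.144% and 0.0799% at 48 h. At 0 h the limit thus passed through a continuous range, whereas at 48 h a gap lay below it. Another 7 barcodes at 0 h and 1 at 48 h failed only the mitochondrial limit, and 13 and 2 failed only the comparison with endothelial genes.

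**Figure D1:**
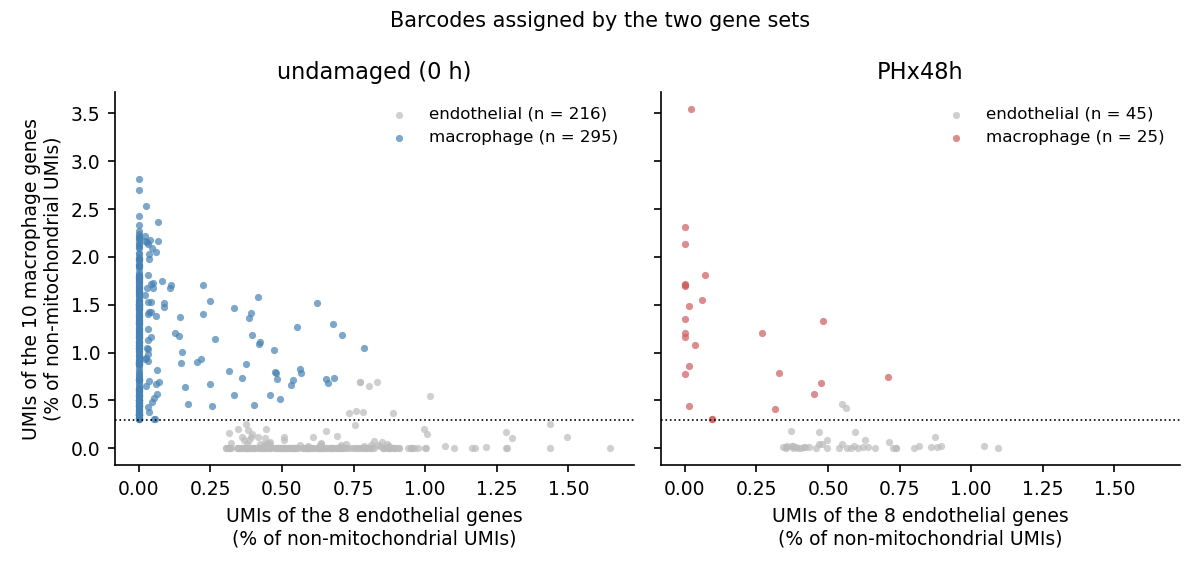
Share of each barcode's non-mitochondrial UMIs that came from the 10 macrophage genes (vertical axis, %) against the share from the 8 endothelial genes (horizontal axis, %), with 1 panel per library. The dotted line marks the 0.3% limit, and the 295 macrophage barcodes at 0 h and 25 at 48 h lie above it. Some endothelial barcodes at 0 h also lie above the line, beside mixed members, so that the 2 classes meet there.

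Members differed in depth between the libraries. The median member held 2549 UMIs at 0 h (range, 1184 to 7732) and 5497 at 48 h (range, 4588 to 12396), and a median of 1248 and 2214 genes. The shallowest background barcode (defined below) held 1183 UMIs at 0 h and 4578 at 48 h, near the lowest member of each library. The upper quartile of members at 0 h was 3444.5 UMIs, and macrophages of that depth were not represented at 48 h. The depth difference was therefore not read as a trait of the macrophages. Its effect on the counts, shares and levels below was not tested. Mitochondrial genes took a median of 2.95% of UMIs at 0 h and 7.10% at 48 h. A total of 148 barcode sequences occurred in both libraries, none of them as a member in both, and 3 of the 25 barcodes of the 48 h members also occurred at 0 h.

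Macrophages made up 0.498% of all barcodes at 0 h (95% interval, 0.443 to 0.558) and 1.58% at 48 h (1.02 to 2.32). Most barcodes of the undamaged library held under 2% mitochondrial UMIs, and so the denominator decided the direction. Among barcodes from 2% to 30% mitochondrial UMIs, members were 235 of 2745 at 0 h, or 8.56% (7.54 to 9.67), and 24 of 299 at 48 h, or 8.03% (5.21 to 11.7), and these intervals overlapped. Relative to liver endothelial barcodes, selected by the mirrored rule, macrophages were 295 of 511 (57.7%; 53.3 to 62.1) at 0 h and 25 of 70 (35.7%; 24.6 to 48.1) at 48 h. No direction for the number of macrophages was read from these shares.

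Hepatocyte transcripts made up a large part of each member's UMIs. Their level was measured against barcodes with under 2% mitochondrial UMIs that were no members (52527 at 0 h and 521 at 48 h), which served as the background profile. Over 22 hepatocyte genes such as Alb, the median ratio of member level to background level was 57.0% at 0 h, with single genes from 50.8% to 86.8% (Mat1a). At 48 h it was 37.5%, with single genes from 22.8% (Ass1) to 57.1% (Cyp2e1). Background amounting to these shares of the members' 795096 and 142523 non-mitochondrial UMIs was subtracted gene by gene, and levels below are net counts per 1000000 net UMIs (net CPM) of the summed members. At this depth 1 UMI was worth 2.92 net CPM at 0 h and 11.2 at 48 h, so that a given level rested on fewer UMIs at 48 h, and 0 UMIs allowed a level of up to 8.77 and 33.7 CPM (3 UMIs).

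A second kind of admixture was present in both libraries. Members with 3 or more UMIs of the 8 endothelial genes, called mixed barcodes here, numbered 46 of 295 (15.6%; 11.6 to 20.2) at 0 h and 12 of 25 (48%; 27.8 to 68.7) at 48 h. They also held most transcripts of stromal cells, with 339 of 347 UMIs of 10 stromal genes such as Dcn at 48 h, against 8 UMIs in the 13 other members. At 0 h the mixed barcodes held 659 of 854. The limit of 3 UMIs was not adjusted for depth, and a deeper barcode reaches it more easily. At 0 h the median non-mitochondrial depth was 3716.5 UMIs in mixed barcodes and 2287 in the other members. At 48 h it was 5690 and 5192. No difference in admixture between the libraries was therefore read from these shares. Whether mixed barcodes were doublets, cell clumps or cells with free RNA was not tested, and values without them (249 members at 0 h and 13 at 48 h) are given beside the counts of each list and the genes whose call they alter. Without them 3 UMIs were worth 12.5 CPM at 0 h and 82.9 CPM at 48 h. A gene with a 0 h level under 82.9 CPM could then not be shown to be lower at 48 h, even where it counts as lower.

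Transcripts typical of resident Kupffer cells were present at both times, but the genes of this paragraph also chose the members. Their presence was in part set by that choice and is given as a description. Of the rule genes, Clec4f, the lectin found on Kupffer cells, was detected in 261 of 295 barcodes at 0 h and in 25 of 25 at 48 h, at net levels of 3751 CPM (3549 to 3962) and 2290 CPM (1986 to 2627). Cd5l, a secreted inhibitor of macrophage apoptosis, stood at 5438 CPM at 0 h and 5928 CPM at 48 h. Vsig4, the complement receptor, stood at 3086 and 1605 CPM. The remaining rule genes other than Marco had lower levels at 48 h than at 0 h.

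The 3 chains of C1q, the recognition unit of the classical complement pathway, had lower net levels at 48 h. C1qa was 4553 CPM at 0 h and 2052 CPM at 48 h, C1qb was 2737 and 1671 CPM, and C1qc was 4860 and 2155 CPM. The log2 ratio of 48 h to 0 h, with 20 CPM added to both levels here and below, was -1.14, -0.71 and -1.17. Without the mixed barcodes these ratios were -0.69, -0.16 and -0.72, so that no chain then passed 2-fold. Csf1r, the receptor for the macrophage growth factor CSF1, gave 2565 and 1291 CPM (log2 ratio, -0.98; -0.61 without mixed barcodes). The surface receptor Adgre1 (F4/80) gave 759 and 370 CPM, and the endosomal protein Cd68 gave 295 and 179 CPM.

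Marco, a scavenger receptor for bacteria and particles, had the opposite direction. It was detected in 52 of 295 members at 0 h and in 22 of 25 at 48 h, with 162 and 130 UMIs. The net level was 473 CPM at 0 h (403 to 552) and 1459 CPM at 48 h (1219 to 1733), which is 3.09-fold higher at 48 h (log2 ratio, 1.59, with an interval that excluded 0). Without mixed barcodes it was 4.54-fold higher (log2 ratio, 2.14). A single barcode held 32.3% of the Marco UMIs at 48 h and 17.3% at 0 h.

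Shares of barcodes were also compared at equal depth. When every barcode was thinned to 1000 non-mitochondrial UMIs, which no member fell short of, 12.9% of members at 0 h (9.28 to 17.2) and 44% at 48 h (24.4 to 65.1) had a Marco UMI. In endothelial barcodes, which should lack Marco, the thinned shares were 0.926% and 4.44%, at median depths of 2429.5 and 6560 UMIs. In background barcodes they were 0.0457% and 0.192%, at median depths of 1422 and 5294 UMIs. The thinned shares of members with Clec4f were 72.9% and 60%, and those with Cd5l were 80% and 84% (276 of 295 and 24 of 25 before thinning). Marco also took part in selecting the members, and these values are a description.

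Promoter sequence is shown for C1qc and Marco, rule genes with opposite directions in these libraries. The stretches run 5′ to 3′ on the coding strand and end at the base before the annotated gene (RefSeq promoter sequences, GRCm38.p6). C1qc lies on chromosome 4 from 136889804 to 136893065 and Marco on chromosome 1 from 120474538 to 120505024, both on the minus strand. The capitals mark a match, on the opposite strand, to GAGGAAGT, a motif of the kind bound by the macrophage factor PU.1 (Spi1).
C1qc, chr4:136893066-136893164, minus strand: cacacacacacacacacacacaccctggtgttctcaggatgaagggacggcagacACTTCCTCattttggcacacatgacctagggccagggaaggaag
Marco, chr1:120505025-120505274, minus strand: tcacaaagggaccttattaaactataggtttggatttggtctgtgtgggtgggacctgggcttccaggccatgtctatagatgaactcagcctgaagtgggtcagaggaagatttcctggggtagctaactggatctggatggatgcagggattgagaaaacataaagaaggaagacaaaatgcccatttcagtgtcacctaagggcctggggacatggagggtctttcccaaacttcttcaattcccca
The motif was searched on both strands. Of 9 rule genes looked up, 7 had a window of up to 250 bases, and 1 of these, C1qc, held the motif. Among all 32851 windows of 250 upstream bases, 802 (2.44%) held it. A match is a description of these letters and was not tested as a binding site.

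**Figure D2:**
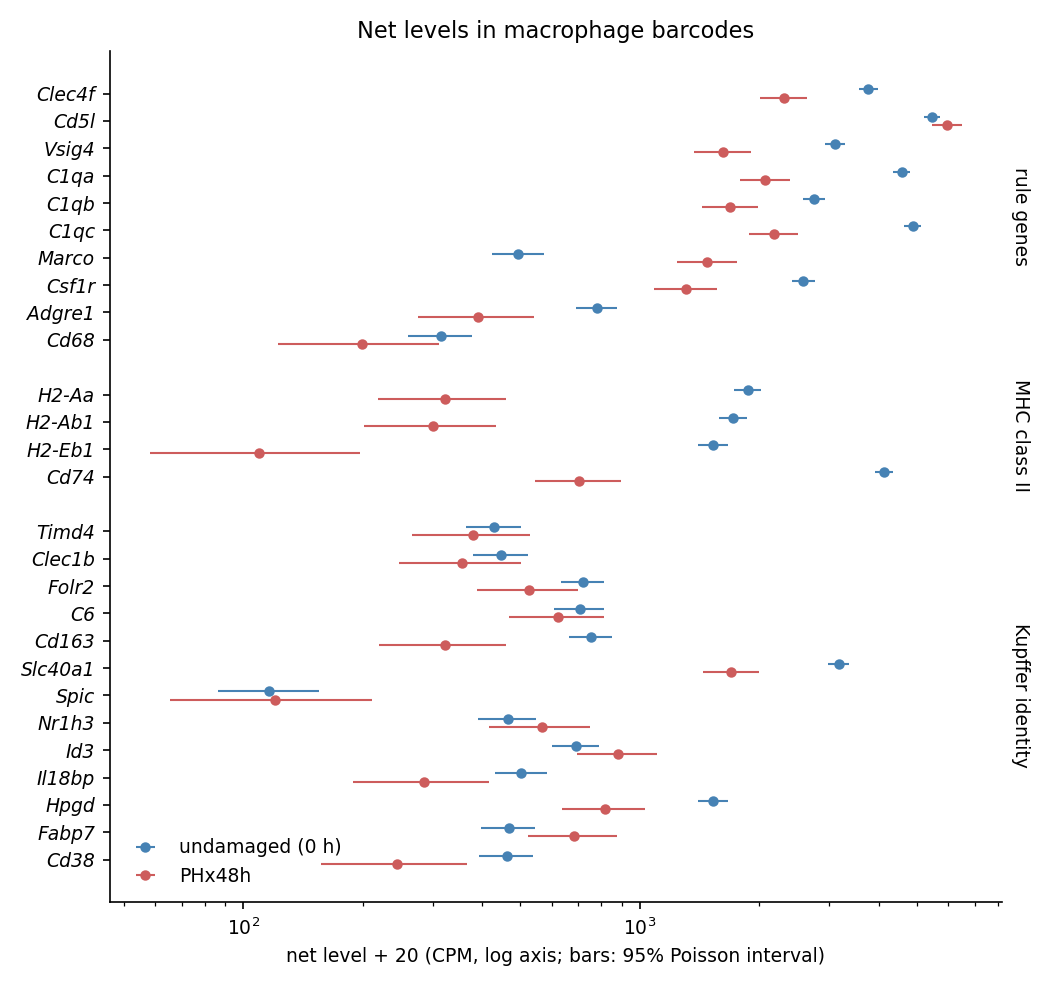
Net levels of the rule genes, 4 MHC class II genes and 13 Kupffer identity genes in macrophage barcodes (CPM plus 20, log axis), with points for each library and bars for the 95% Poisson interval of the counts. Marco lies to the right at 48 h (473 against 1459 CPM), while Cd74 (4113 against 684 CPM) and the other MHC class II genes lie to the left.

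The 4 genes for MHC class II antigen presentation were lower at 48 h in these members. Cd74, the invariant chain that guides class II molecules to the endosome, had a net level of 4113 CPM at 0 h (3901 to 4334) and 684 CPM at 48 h (523 to 879). The class II chains H2-Aa, H2-Ab1 and H2-Eb1 stood at 1850, 1694 and 1511 CPM at 0 h, and at 302, 280 and 89.3 CPM at 48 h. H2-Eb1 had 519 UMIs in 183 of the 295 members at 0 h and 8 UMIs in 6 of the 25 members at 48 h. The log2 ratios were -2.55 for Cd74, -2.54 for H2-Aa, -2.51 for H2-Ab1 and -3.81 for H2-Eb1, each with an interval that excluded 0. These genes played no part in choosing the members.

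The class II chaperone genes were lower too. H2-DMa stood at 318 CPM at 0 h and 78.6 CPM at 48 h (log2 ratio, -1.78), and H2-DMb1 at 271 and 101 CPM (-1.27). Cd86, a costimulatory ligand for T cells, stood at 117 and 101 CPM (-0.17; interval, -1.13 to 0.73). Ciita, the master regulator of class II transcription, had 6 UMIs at 0 h and 0 at 48 h, too few for a comparison. Of the 7 presentation genes compared, 6 were at least 2-fold lower and none was higher, with a median log2 ratio of -2.51. For reference, 11.5% of all 2314 genes compared were at least 2-fold lower and 13.6% were at least 2-fold higher.

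The direction of the class II genes was the same without mixed barcodes, with smaller differences. The log2 ratios were then -1.81 for Cd74, -1.88 for H2-Aa, -1.53 for H2-Ab1 and -2.91 for H2-Eb1, and 6 of the 7 genes remained at least 2-fold lower, with a list median of -1.81. In members with at least 3 of Clec4f, Cd5l, Vsig4 and Timd4 (220 of 295 and 24 of 25), the 4 class II genes gave 41.0 UMIs per 10000 at 0 h and 8.53 at 48 h. Since 3 of these genes belong to the rule and the 48 h subset leaves out 1 barcode, this largely repeats the same comparison.

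Barcodes varied widely in class II transcripts within each library. At 0 h, 280 of 295 members had a UMI of the 4 genes, with a median of 29.1 per 10000 non-mitochondrial UMIs (range, 0 to 216). At 48 h, 21 of 25 had one, with a median of 2.32 (range, 0 to 105), and the groups overlapped. A single barcode held 53 of the 121 class II UMIs at 48 h (43.8%), and the other 24 held 68, or 4.95 per 10000. That barcode had no endothelial UMI and 117 UMIs of the macrophage genes. Of the 25 members at 48 h, 2 lay above the 0 h median.

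A Cd74 UMI was present in 258 of 295 members at 0 h and in 15 of 25 at 48 h. Thinned to 1000 UMIs, 63.4% of members at 0 h (57.6 to 68.9) and 24% at 48 h (9.36 to 45.1) had a Cd74 UMI. The corresponding shares in endothelial barcodes were 3.70% and 6.67%, and in background barcodes 0.480% and 0.192%. Endothelial barcodes held far fewer class II transcripts, with a 4-gene net sum of 375 CPM at 0 h and 56.4 CPM at 48 h. Barcodes rich in class II genes without the macrophage or endothelial genes numbered 42 at 0 h and 4 at 48 h, and gave a 4-gene sum of 30729 CPM at 0 h.

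**Figure D3:**
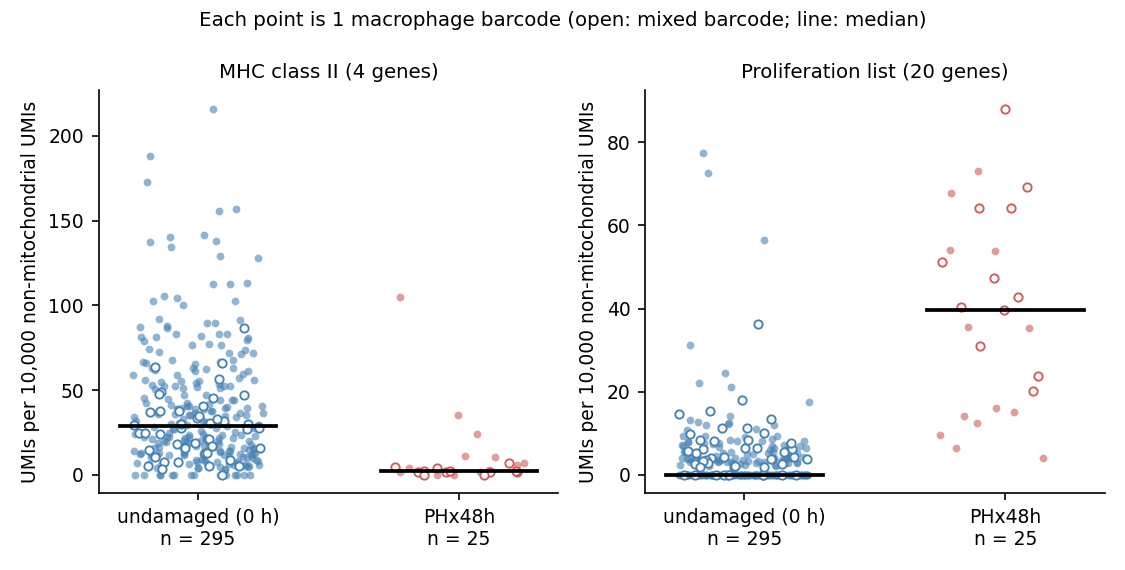
UMIs per 10000 non-mitochondrial UMIs in each macrophage barcode (1 point each; open points, mixed barcodes; line, median), for the gene groups named above each panel and for both libraries. The class II median was 29.1 at 0 h and 2.32 at 48 h, and the proliferation median was 0 at 0 h and 39.7 at 48 h. These values are without background subtraction.

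Cell cycle transcripts were higher at 48 h, and theirs was the highest median log2 ratio of the lists compared. Top2a, the topoisomerase that untangles replicated DNA, had 34 UMIs in 11 of 295 members at 0 h and 62 UMIs in 17 of 25 at 48 h, or 97.0 CPM (66.5 to 137) and 669 CPM (507 to 866). Mki67, a nuclear protein of cycling cells, stood at 51.3 and 257 CPM. Stmn1, a microtubule destabilizer, stood at 47.7 and 600 CPM, and Hmgb2, a chromatin protein, at 91.4 and 632 CPM. The log2 ratios were 2.56, 1.96, 3.19 and 2.55.

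Genes of the spindle and of DNA synthesis had the same direction. Tubb5, a tubulin chain, stood at 282 and 1063 CPM (log2 ratio, 1.84), and Ube2c, a ubiquitin ligase partner of mitotic exit, at 15.8 and 254 CPM (2.93). Tpx2, a spindle assembly factor, had no UMI at 0 h and 16 at 48 h, which is at least 19.1-fold higher against 3 UMIs over the 0 h members. The replication licensing genes Mcm3, Mcm5 and Mcm6 had log2 ratios of 1.31, 2.14 and 1.88, and Rrm2, which makes deoxynucleotides, one of 2.93. Pcna, the sliding clamp of DNA polymerase, stood at 68.7 and 103 CPM (0.48, with an interval that included 0). Of 16 proliferation genes compared, 15 were at least 2-fold higher and none was lower, with a median of 2.19, beside 13.6% higher over all genes compared.

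Mixed barcodes held more of these transcripts than the others. Proliferation genes gave a median of 0 per 10000 at 0 h (range, 0 to 77.5) and 39.7 at 48 h (range, 3.95 to 88.0). At 48 h the median was 45.1 in the 12 mixed barcodes and 16.1 in the 13 others. These values include background, which was expected to give 40.7 of the 356 proliferation UMIs at 0 h and 97.9 of the 574 at 48 h. In the 13 other members at 48 h it was 48.2 of 221. At least 5 UMIs above the expected background were present in 10 of 295 members at 0 h and in 18 of 25 at 48 h, of which 12 were mixed (12 of 12) and 6 were not (6 of 13). This limit of 5 UMIs was not adjusted for depth, and members at 48 h were deeper. Without mixed barcodes 14 of the 16 genes were at least 2-fold higher, with a median log2 ratio of 1.85 and Top2a at 114 and 455 CPM.

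Endothelial barcodes also held more proliferation transcripts at 48 h. The summed net level of the proliferation genes was 796 CPM at 0 h and 5309 CPM at 48 h there, beside 922 and 5348 CPM in members. Thinned to 1000 UMIs, 1.69% of members at 0 h and 32% at 48 h had a Top2a UMI, against 2.31% and 20% of endothelial barcodes and 0.181% and 5.18% of background barcodes. For Stmn1 at 48 h the thinned shares were closer, at 48% of members (27.8 to 68.7), 44.4% of endothelial and 31.9% of background barcodes. The background barcodes of the 48 h library thus also carried Top2a and Stmn1, and the part of the endothelial admixture in the members' values was not tested.

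Genes of Kupffer cell identity outside the rule differed less. Timd4, which binds phosphatidylserine on dying cells, stood at 408 CPM at 0 h and 359 CPM at 48 h (log2 ratio, -0.18; interval, -0.74 to 0.36). Folr2, a folate receptor, stood at 697 and 505 CPM, Clec1b, a lectin receptor, at 426 and 337 CPM, and Nr1h3, the lipid-sensing factor LXR alpha, at 445 and 545 CPM. Fabp7, a fatty acid binding protein, had the highest ratio of the list, with 446 and 662 CPM (0.55; interval, 0.11 to 0.97), and it passed 2-fold without mixed barcodes (490 and 1077 CPM; 1.11). Slc40a1, the iron exporter ferroportin, stood at 3152 and 1681 CPM (-0.90). Of 12 genes compared, 1 was at least 2-fold lower and none was higher, and the median was -0.39 (over all genes compared, 11.5% were lower and 13.6% higher). That gene was Cd163, the receptor for hemoglobin bound to haptoglobin, with 732 and 303 CPM (-1.22; -0.78 without mixed barcodes). Without mixed barcodes the list thus had 1 gene higher and 0 lower, with a median of -0.17. Not every gene of the list was specific to members in barcodes thinned as above. Id3 was found in 24.1% of members and 31.9% of endothelial barcodes at 0 h, and in 28% and 66.7% at 48 h. For Cd38 these shares were 13.6% and 21.3% at 0 h, and 12% and 22.2% at 48 h. C6 was found in 34.2% of members and 16.3% of background barcodes at 0 h. All genes of the list but Id3 and Cd38 were more frequent in members than in endothelial barcodes at both times.

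Markers of monocytes were at or near 0 in the members at both times. A monocyte without the macrophage genes of the rule could not become a member, so these values were in part set by the choice of members. Monocytes elsewhere in the libraries were not examined. Ly6c2, Chil3, F13a1 and S100a4 had 0 UMIs in either library, and Ccr2, the receptor for monocyte entry, had 2 UMIs at 0 h and 1 at 48 h. For Ly6c2, 0 of 25 members at 48 h allows a share of cells with a UMI of up to 13.7% (exact upper bound), so a small monocyte fraction was not detectable at this depth. Plac8 was the exception, with 213 CPM at 0 h and 514 CPM at 48 h (log2 ratio, 1.20; 0.59 without mixed barcodes), and its level in endothelial barcodes was 107 and 518 CPM. Monocyte genes apart from Plac8 contributed few UMIs, and the list sum was 269 CPM at 0 h and 570 CPM at 48 h.

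Transcripts of other blood cells were also scarce among the members, which was in part set by the same choice. The 10 neutrophil genes summed to 18 UMIs at 0 h and 4 at 48 h, the 8 dendritic cell genes to 20 and 2, the 5 B cell genes to 9 and 2, and the 8 T and natural killer cell genes to 5 and 0. The defining markers S100a9, Flt3 and Cd3e had 0 UMIs in both libraries, but not every gene of these lists did. At 0 h, 1 neutrophil gene and 1 dendritic cell gene had at least 10 UMIs and 4 times or more the expected background. Cholangiocyte genes gave 9 and 0 UMIs, and platelet genes 4 and 1. UMIs of the hemoglobin genes Hbb-bs, Hba-a1 and Hba-a2 (336 at 0 h) came from 6 barcodes, of which 1 held 86.6%, and none was present at 48 h. These 3 genes, the hemoglobin genes compared, were all past 2-fold on those few barcodes. With Hbb-bt and Alas2 added, the sum was 401 UMIs in 38 barcodes at 0 h and 1 UMI at 48 h.

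Endothelial and stromal genes were present. The 8 endothelial genes of the rule gave 759 UMIs at 0 h and 203 at 48 h, of which mixed barcodes held 699 and 199, and Egfl7, a secreted factor of endothelium, was the 1 past 2-fold, with 159 and 390 CPM (1.19; 0.87 without mixed barcodes). Outside the rule, Cdh5, an adhesion molecule of endothelium, stood at 544 and 303 CPM and kept 538 CPM at 0 h without mixed barcodes, while Eng, a TGF-beta co-receptor, stood at 273 and 299 CPM with all members and at 31.9 and 0 CPM without mixed ones. Of 3 further endothelial genes compared none passed 2-fold with all members (median log2 ratio, 0.09), and without mixed barcodes 1 was lower (Eng, -1.38), with a median of -0.92. The 31.9 CPM of Eng was under the 82.9 CPM that 3 UMIs were worth at 48 h without mixed barcodes, so a lower level was not shown. Dcn, a matrix proteoglycan of stellate and stromal cells, stood at 1065 and 2160 CPM (log2 ratio, 1.01), and 196 of its 198 UMIs at 48 h were in mixed barcodes, so that its ratio without them was -3.93. Of 8 stromal genes compared, 4 (Dcn, Col1a2, Col3a1 and Des) were at least 2-fold higher with all members (median, 0.83), whereas without the mixed barcodes none was higher and 5 were lower (median, -1.43). Over all genes compared, 13.6% were higher with all members.

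Over all genes, the comparison left out the rule genes and took genes with at least 100 net CPM and 10 UMIs in either library that were observed at 1.5 times or more the expected background. Of 2314 such genes, 314 (13.6%) were at least 2-fold higher at 48 h and 267 (11.5%) at least 2-fold lower, with a median log2 ratio of 0.01. The counting interval excluded 0 for 277 of the higher and 210 of the lower genes. Without mixed barcodes 220 of 1815 genes were higher and 374 lower, so the share of higher genes among those past 2-fold was 54.0% with all members and 37.0% without them. Among the 1639 genes observed at 4 times or more the background, 201 (12.3%) were higher and 181 (11%) lower. List counts without mixed barcodes keep the 2314 genes as their base, of which 320 were then higher and 449 lower. These counts over all genes are the reference for each list.

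Genes farthest above the hepatocyte background included many known from phagocytes. Of genes with at least 10 UMIs outside the rule, 3152 of 7651 (41.2%) at 0 h were observed at 4 times or more the expected background, and 1379 of 2528 (54.5%) at 48 h. Outside the rule, the highest ratios at 0 h belonged to the proteoglycan Sdc3, the secreted protein Wfdc17, the protease Ctss, properdin (Cfp), lysozyme (Lyz2), Cd74, ficolin A (Fcna), the adaptor Tyrobp, Laptm5 and the NADPH oxidase subunit Cybb. At 48 h they belonged to Tmsb4x, Wfdc17, Sdc3, Lgmn, Tyrobp, Lyz2, Marcks, Ccl6, Cybb and Hmox1. Sdc3 stood at 3070 CPM at 0 h and 2323 CPM at 48 h, and Wfdc17 at 4753 and 5015 CPM, with 31.1% of its UMIs at 48 h in 1 barcode. Without mixed barcodes Wfdc17 stood at 5671 and 9943 CPM (log2 ratio, 0.81 in place of 0.08). Fcna, a lectin that activates complement, stood at 1979 and 680 CPM (log2 ratio, -1.51; -1.18 without mixed barcodes).

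The most extreme ratios were partly of genes near the background. Among the 10 highest, Cyp3a11, Clu, Ndufa4, Cox7c, Cyp2c29, C4bp and Serping1 had about the expected background UMIs at 0 h, and Cyp3a11, a hepatocyte drug-metabolizing enzyme, had 6262 UMIs against 6643 expected. Among the genes observed at 4 times background, the highest were the histone gene Hist1h2ap, Tpx2, Lgals1, Prc1, Rrm2, Tpm2, 2810417H13Rik, Rrm1, Smc2 and Ube2t. Hist1h2ap had 0 UMIs at 0 h and 46 at 48 h, or at least 54.0-fold higher against 3 UMIs over the 0 h members, though near-identical histone genes make its count uncertain. Of these UMIs 32 were in mixed barcodes, the level at 48 h without them was 319 CPM, against a 0 h floor of 12.5 CPM, and endothelial barcodes held 878 CPM at 48 h. Tpm2 had 53.3% of its UMIs at 48 h in 1 barcode and none outside mixed barcodes. Lgals1, a galactoside-binding lectin, stood at 25.4 and 379 CPM (3.14; 1.52 without mixed barcodes), beside 320 and 2433 CPM in endothelial barcodes.

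The lowest ratios included Malat1, an abundant nuclear RNA. It stood at 56367 CPM at 0 h (55554 to 57188) and 6387 CPM at 48 h (5822 to 6986), which is 8.82-fold lower (log2 ratio, -3.14, with and without mixed barcodes). In endothelial barcodes its level was 63611 and 14114 CPM. The other lowest genes at 4 times background were Hbb-bs, Hba-a2, H2-Eb1, Bach2os, Rbm22, Map3k8, Irf2, Stx5a and Pfdn1. Hbb-bs had 189 UMIs at 0 h, of which 82.5% were in 1 barcode (log2 ratio, -0.97 without mixed barcodes), and 91.8% of those of Hba-a2 were in 1 barcode. Bach2os, an antisense transcript, had 47 UMIs in 38 members at 0 h and 0 at 48 h, or at least 4.04-fold lower, and the kinase gene Map3k8 had 38 and 0, or at least 3.28-fold lower. Hepatocyte genes named among the lowest when the 1.5-fold limit was used were Mat1a, Aldh8a1, Cmah and Gpd1.

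Phagocytic receptors and complement genes had mostly small negative ratios. Of 8 Fc and complement genes compared, 3 were at least 2-fold lower and none was higher, with a median of -0.59. The shares over all genes compared were 11.5% lower and 13.6% higher. Without mixed barcodes 2 were lower and the median was -0.03, beside 449 of all 2314 genes that were then lower. Fcgr4, an activating IgG receptor, stood at 479 and 146 CPM (log2 ratio, -1.59), properdin (Cfp) at 1133 and 426 CPM (-1.37; -0.96 without mixed barcodes), and C3ar1, the receptor for C3a, at 178 and 56.2 CPM (-1.38). The signalling adaptors Tyrobp and Fcer1g stood at 2040 and 1313 CPM and at 1343 and 985 CPM, and had ratios of 0.00 and 0.03 without mixed barcodes.

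Among 12 receptors and bridging proteins for uptake of debris and dying cells, 2 were at least 2-fold lower (Cd163 and Stab1) and 1 higher (Mfge8), with a median of -0.55. Over all genes compared, 11.5% were lower and 13.6% higher. Without mixed barcodes 1 was lower (Stab1) and none higher, with a median of -0.34. Stab1, a scavenger receptor shared with endothelium, stood at 271 and 112 CPM in members and at 1091 and 441 CPM in endothelial barcodes. Mfge8 stood at 35.6 and 130 CPM and reversed without mixed barcodes (-0.35). Mertk and Axl, receptor kinases of apoptotic cell uptake, stood at 361 and 313 CPM and at 837 and 572 CPM, within 2-fold.

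Lysosomal genes were abundant at both times. Ctsb, a cysteine protease, stood at 7130 and 4669 CPM, and Psap, the precursor of the saposins, at 5369 and 3613 CPM. Ctss, the protease that processes the invariant chain Cd74, had the lowest ratio of the list, with 2477 CPM at 0 h (2313 to 2650) and 741 CPM at 48 h (573 to 942), a log2 ratio of -1.72 that was -1.76 without mixed barcodes. Lyz2, lysozyme, stood at 2996 and 1245 CPM (-1.25; -0.68 without mixed barcodes). Of 19 genes, 4 were at least 2-fold lower (Ctss, Lyz2, Ctsa and Lipa) and 1 higher (Cd63, 4 and 13 UMIs), and the median was -0.37. The shares over all genes compared were 11.5% lower and 13.6% higher. Without mixed barcodes 2 were lower (Ctss and Ctsa) and 2 higher (Cd63 and Ctsl), with a median of -0.24, and Ctsl, a further cysteine protease, turned from -0.34 to 1.47. Lgmn, an asparagine-specific protease, stood at 2046 and 2437 CPM.

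Of 8 iron and heme genes, 1 was at least 2-fold lower and none higher, with a median of -0.27. That count is near the 11.5% of all genes compared that were lower. Hmox1, which breaks down heme, stood at 997 CPM at 0 h and 1041 CPM at 48 h, and its log2 ratio was 0.06 (0.86 without mixed barcodes). The ferritin chains Fth1 and Ftl1 stood at 4785 and 4477 CPM and at 8521 and 4579 CPM. Slc48a1, a heme transporter of the lysosome, stood at 229 and 96.7 CPM (-1.09), and was also the 1 lower gene without mixed barcodes (-2.09), where the list median was -0.19.

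Of 12 transcription factors compared, 2 were at least 2-fold lower and none was higher, with a median of -0.13. Without mixed barcodes 4 were lower (Maf, Irf7, Irf8 and Zeb2), with a median of -0.17. Of all 2314 genes compared, 11.5% were lower with all members, and 449 were lower without mixed barcodes. Maf, which holds macrophages in a differentiated state, stood at 1705 and 658 CPM (log2 ratio, -1.35; -1.26 without mixed barcodes), and its endothelial level was 3014 and 952 CPM. Irf7, a factor of the interferon response, stood at 452 and 185 CPM (-1.21). Spi1 (PU.1), the lineage factor of macrophages, stood at 630 and 460 CPM.

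Interferon-response genes had a median of -0.99 over 6 compared, of which 3 were at least 2-fold lower and none higher. Over all genes compared, 11.5% were lower with all members. Without mixed barcodes the counts were the same and the median was -0.59. Oasl2 had 50 UMIs at 0 h and 2 at 48 h, with a log2 ratio of -1.99 (interval, -2.98 to -0.67). Ifi27l2a stood at 1222 and 1527 CPM in the opposite direction (0.32). Of 9 cytokine receptors compared, Ifnar2, a chain of the interferon alpha and beta receptor, was the 1 past 2-fold, with 256 and 114 CPM (-1.05; -2.20 without mixed barcodes), and the median was -0.53 (-0.21 without them).

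Cytokines known from the priming phase of regeneration were at or under the detection limit. Il6 had 5 UMIs at 0 h and 0 at 48 h, Tnf 2 and 0, and Osm and Areg 0 in both libraries, so differences in these were not detectable at this depth. Il1b had 44 UMIs at 0 h and 3 at 48 h (128 and 33.7 CPM; log2 ratio, -1.46; interval, -2.53 to -0.26). Hgf, the hepatocyte mitogen, had 36 and 11 UMIs (104 and 122 CPM) and stood at 61.0 and 0 CPM without mixed barcodes, beside 222 CPM in endothelial barcodes at each time. Of 4 growth factor and cytokine genes compared, only Il1b passed 2-fold with all members (median, -0.79), and Il1b and Hgf did without mixed barcodes (median, -1.24). The 61.0 CPM of Hgf was under the 82.9 CPM that 3 UMIs were worth at 48 h without mixed barcodes, so a lower level was not shown.

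Among chemokines, Cxcl13, a ligand that attracts B cells, had 54 UMIs in 31 members at 0 h and 1 UMI at 48 h (157 and 11.2 CPM; log2 ratio, -2.51; interval, -3.22 to -1.06). With all members it was the only 1 of 6 chemokine and chemokine receptor genes past 2-fold (11.5% of all genes compared were lower), and the median was -0.17. Without mixed barcodes the median was 0.21, and Ccl6 and Pf4 were also past 2-fold, in the higher direction. Ccl6 stood at 715 and 943 CPM with all members and at 784 and 1658 CPM without mixed ones (log2 ratio, 0.39 and 1.06), and Ccl24 turned from -0.37 to 0.37. None of the 11 pattern recognition genes reached the level required for comparison. Cd14, the coreceptor for bacterial lipopolysaccharide, had 13 and 3 UMIs, and Tlr13, a receptor for bacterial RNA, had 22 and 0.

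Lipid handling, oxidase, cytoskeletal and immediate early genes completed the lists. Fabp4, a fatty acid binding protein, stood at 62.0 and 297 CPM (log2 ratio, 1.95) beside 379 and 1657 CPM in endothelial barcodes, and Apoe, an apolipoprotein, at 7510 and 3250 CPM (-1.20; -0.92 without mixed barcodes). The median of 8 lipid genes was -0.18 with 1 higher and 1 lower, and 0.10 with 1 higher and 0 lower without mixed barcodes. With all members these counts were near the 13.6% higher and 11.5% lower of all genes compared. Of 6 oxidase and antimicrobial genes none passed 2-fold (median, -0.33), and Cybb stood at 992 and 854 CPM (-0.21; 0.20 without mixed barcodes). Without mixed barcodes Ncf1, an oxidase subunit, was past 2-fold (1.31) and the median was 0.0056. Of 5 immediate early genes none passed 2-fold (median, -0.17), while without mixed barcodes Zfp36, which destabilizes mRNAs of cytokines, was higher (1.13) and Nfkbia, an inhibitor of NF-kappaB, lower (-1.39), with a median of -0.58.

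Of 10 actin and motility genes, 3 were at least 2-fold higher and none was lower, with a median of 0.13, beside 13.6% higher over all genes compared. Without mixed barcodes 2 were higher and 1 lower, with a median of 0.37. Actg1, a cytoplasmic actin, stood at 1384 and 2972 CPM (log2 ratio, 1.09; 1.20 without mixed barcodes), and Cfl1, the actin-severing protein cofilin, at 692 and 1448 CPM (1.05; 1.18 without them). Tmsb10, an actin monomer binder, stood at 76.5 and 509 CPM, but at 44.3 and 0 CPM without mixed barcodes, where its ratio reversed to -1.69. Since 3 UMIs were worth 82.9 CPM at 48 h in those barcodes, this reversal lay within the detection limit. Tmsb4x, its relative and the most abundant of the list, stood at 13734 and 15210 CPM.

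Acute-phase transcripts in members were within the hepatocyte background. Saa1, a serum amyloid A gene of hepatocytes, had 104 UMIs at 0 h and 392 at 48 h, but its net level was 25.7 and 0 CPM, and the net levels of Saa2, Lcn2 and Hp were 0 at both times. Only the metallothionein genes Mt1 and Mt2 passed to the comparison, with 180 and 133 CPM and with 36.0 and 103 CPM, and Mt2 was past 2-fold with all members (log2 ratio, 1.13) but not without the mixed ones (0.03), and the counting interval of its ratio included 0.

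**Figure D4:**
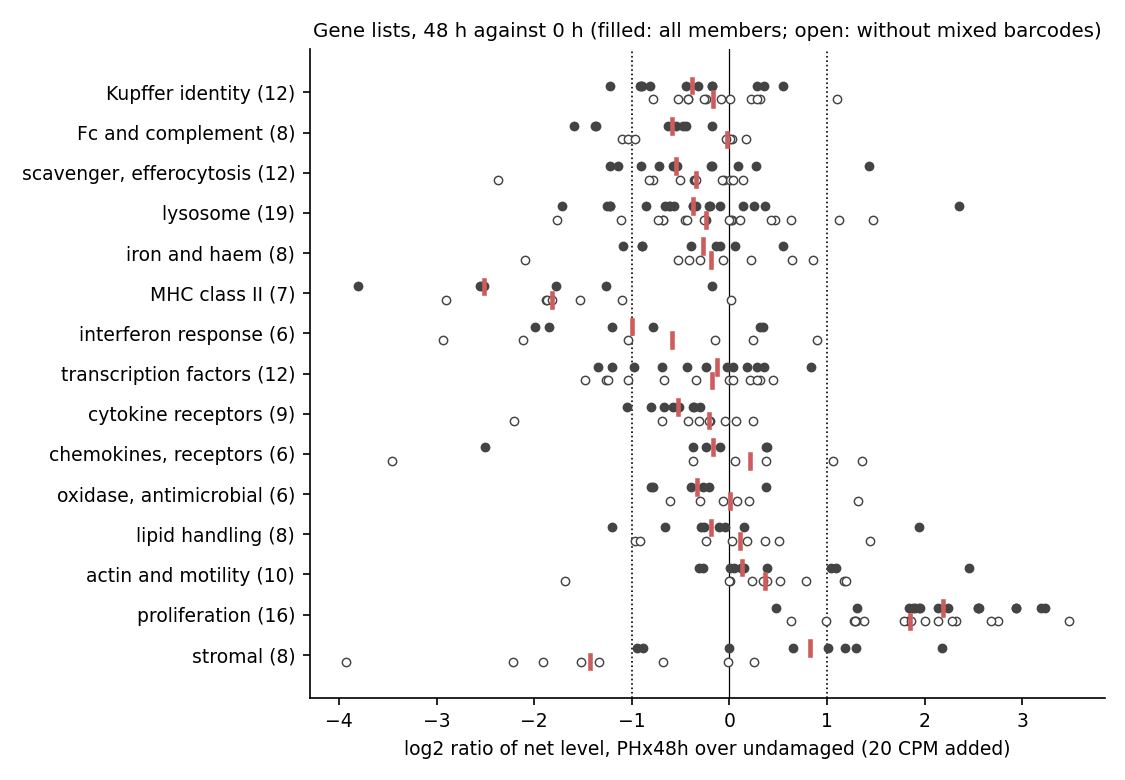
Log2 ratios of net levels at 48 h to those at 0 h for the genes compared in each list (1 point per gene, 20 CPM added; filled marks, all members; open marks, without mixed barcodes), with the list median. The MHC class II list lies to the left (median, -2.51) and the proliferation list to the right (median, 2.19), while the median of all 2314 genes is 0.01.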

How the data were processed

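The authors made the files with Cell Ranger on the mm10 genome per the labels and deposited raw UMI counts per gene and barcode for 27998 genes, without normalization. The Cell Ranger version was not given in the sources used here. The study's methods mention removing barcodes with high mitochondrial content and possible doublets, without limits. The deposited tables were used as they stand, and no doublet caller was run here.

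Libraries were grouped by the time point in the labels. The members, the 32 gene lists and the tests were chosen with earlier results of these data known. For each library the UMIs of members were summed, the median level of 22 hepatocyte genes relative to barcodes under 2% mitochondrial UMIs set the background share, and that background was subtracted. Mitochondrial genes (13) were left out. Ratios had 20 CPM added. With 1 library per group no p-value was computed. Depth was equalized for shares of barcodes by thinning to 1000 UMIs (seed 1).

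Genes named were the 18 rule genes, the 10 highest over background per library with at least 20 UMIs in 5 barcodes, the 10 highest and 10 lowest ratios, list members past 2-fold, and up to 4 examples per list with the most UMIs. Further list members (such as Il6, Tnf, Timd4, Spi1 and Pcna) were named for their known roles, after their values were seen. A total of 5 listed genes had no entry and are not reported here. Gene coordinates came from the GENCODE vM21 annotation of GRCm38, where 335 of 335 identifiers matched. Calculations were made in Python 3.11.15 with numpy 2.4.6, scipy 1.17.1, pandas 2.3.3 and matplotlib 3.10.9, and the comparison was tested on simulated data, where some unchanged genes also passed 2-fold and some lower genes were missed.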

Additional observations from a re-analysis of the deposited data

How the results depend on the processing

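Precision was limited by the 25 members at 48 h and by the lack of a replicate library. A floor of 1% on the macrophage genes left 173 members at 0 h and 15 at 48 h, and removal of possible doublets left 13 at 48 h. The background share at 0 h was 56.2% with summed UMIs of the 22 genes, 54.5% with Alb alone, 57.1% with background from barcodes under 5% mitochondrial UMIs, 49.6% with the 1% floor and 61.1% without possible doublets. At 48 h these shares were 38.3%, 49.2%, 40.2%, 32.0% and 48.5%. With genes observed at 4 times background, a limit chosen after seeing the data, 201 genes were higher at 48 h. Lower genes numbered 170 with 50 CPM added and 971 of 6561 with no minimum level. Higher genes were 54.0% of those past 2-fold, but 65.0% with Alb alone, 40.8% with the 1% floor, 37.0% without possible doublets and 32.1% with no minimum level. The median log2 ratio of all genes moved from 0.01 to 0.28 without background subtraction and to 0.21 with Alb alone. Without thinning, Cd74 was detected in 87.5% of members at 0 h and 60% at 48 h, Marco in 17.6% and 88%, and Top2a in 68% at 48 h.

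Without background subtraction the log2 ratios of C4bp (-1.01), Clu (-0.52), Cyp2c29 (-1.95), Cyp3a11 (-1.52) and Serping1 (-0.68) reversed. With the 1% floor those of Col1a2 (-0.64) and Mfge8 (-0.57) did. Without possible doublets those of Col1a2 (-0.018), Col3a1 (-1.34), Dcn (-3.93), Des (-0.68), Mfge8 (-0.35) and Tmsb10 (-1.69) did. The cause of these reversals was not tested, and that of Tmsb10 without possible doublets lay within the detection limit (82.9 CPM at 48 h). The median of the MHC class II list lay between -2.57 and -1.81, and that of the proliferation list between 1.68 and 2.72, over 13 alternatives. Those included members without UMIs of the 3 hemoglobin genes compared and members with 3 of 4 Kupffer genes, both chosen after seeing the data. Of 68 genes past 2-fold that were followed, 49 kept 2-fold without background subtraction, 51 without possible doublets and 57 or more under each of the other alternatives. No paired analysis was possible because each group has 1 library.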
